A study of Homo sapiens with 9 samples.

Results

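The genes described here drive or restrain the passage of a cell through G1: the D-type cyclins CCND1, CCND2 and CCND3, their kinases CDK4 and CDK6, the kinase inhibitors CDKN2B, CDKN2C, CDKN2D and CDKN1B, and RB1. All probe sets that the annotation of the array assigns to 1 of these 10 genes were taken, whatever their values. Of the 54675 probe sets on the array, 23 belong to 9 of the genes. The annotation used here names no probe set for CDKN2C, and no value is given for it. Of the 23 probe sets, 17 passed the intensity filter (in some group, 2 or more of the 3 arrays reached their own median).

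In early G1, growth signals raise the D-type cyclins, which bind CDK4 and CDK6 and activate them. The active kinases phosphorylate RB1, the retinoblastoma protein, which then releases E2F transcription factors and lets the genes of DNA replication be transcribed. INK4 proteins such as CDKN2B and CDKN2D bind CDK4 and CDK6 and keep them from the cyclins, whereas CDKN1B, a CIP/KIP protein, mainly restrains the cyclin E and cyclin A complexes of CDK2. CCND1 is a known target of Wnt signalling in the intestinal epithelium.

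HCT116 is a human colon cancer cell line. Inducible stable clones were made from it with the GeneSwitch system, in which mifepristone (MFP) switches on a chimeric regulator (GAL4, progesterone receptor and NF-kB p65 parts) that drives the transgene. TIG1A stable cells carry the isoform of 294 residues of the tazarotene-induced gene 1 (RARRES1), TIG1B stable cells the isoform of 228 residues, and control stable cells the regulator with an empty vector. Total RNA was taken from 3 samples of each after 5 nM MFP for 24 h, so that the regulator and the inducer are common to all 9 arrays. Each group is 1 stable clone, and the induced isoform cannot be told apart from other differences between clones.

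The deposited values are intensities on a linear scale, with array medians of 59.9 to 73.9. RARRES1 (206392_s_at) was measured at 66754, 58452 and 63438 in TIG1A cells and at 44513, 37082 and 36413 in TIG1B cells, against 4.7, 2.9 and 5.2 in control cells. This fits the labels of all 9 arrays as transgene or control arrays. Being high in both lines, it does not show which isoform an array carries. Taken against the array medians, RARRES1 was at least 876-fold higher in TIG1A cells and at least 547-fold higher in TIG1B cells than in control cells. Among epithelial markers, 5 of 7 genes lay above the array median on every array, with VIL1 and CDX2 as the exceptions. Of the other cell types, no fibroblast or leukocyte marker gene did, and 1 of 3 endothelial genes did, PECAM1 by 1 of its 5 probe sets, with 77 to 104 in TIG1A cells, 101 to 157 in TIG1B cells and 139 to 222 in control cells. CDH5 and VWF lay below the median on every array. Across the 29977 probe sets that were kept, limma's moderated test with Benjamini-Hochberg adjustment called 1818 in TIG1A against control cells (858 higher, 960 lower), 535 in TIG1B against control cells (210 higher, 325 lower) and 125 in TIG1A against TIG1B cells. When each array was instead centred on its median, the split was 1274 higher and 357 lower in TIG1A cells, and 251 higher and 105 lower in TIG1B cells. That centring also shifted the kept probe sets as a whole, whose median log2 fold change became 0.12 in both lines, against -0.04 in TIG1A cells and -0.03 in TIG1B cells as deposited.

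For the genes described here, 1 control array stood apart from the other two. Control replicate 1 was the lowest of the control arrays for 11 of the 12 kept probe sets of D-type cyclins, CDK4 and CDK6 (91.7%), including all 7 of CDK6, whereas it was the lowest for 35.6% of all kept probe sets. It was the highest control for 3 of 3 kept probe sets of the inhibitors, against 38.2% of all. For CDK6 its median log2 difference from the other control arrays was -1.11. The array had a median intensity of 72.6, within the range of the others, and its overall spread around the group mean (0.51 log2 units, root mean square) was also within that of the other 8 arrays (0.43 to 0.55). Fold changes of all 17 kept probe sets without this array are plotted further on, and values without it are given in the text for the counts of calls and for most of the genes named.

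Among the D-type cyclins, CCND1 and CCND3 had lower mean intensities in TIG1A cells than in control cells, but no difference passed the test with all arrays. CCND1, on chromosome 11, is represented by a pair of bright probe sets. The first, 208712_at, read 6449, 5195 and 4460 in TIG1A cells and 8747, 7110 and 7145 in TIG1B cells, against 6971, 9477 and 10112 in control cells. All TIG1A arrays lay below all control arrays, and TIG1B and control arrays overlapped. In RNA of whole cultures, fewer cells in a phase of the cycle and less RNA per cell cannot be told apart. The log2 fold change was -0.72 ± 0.21 (SE) in TIG1A cells, with an unadjusted p of 0.00857 and an adjusted p of 0.0803 in limma, and -0.20 ± 0.21 in TIG1B cells (limma, adjusted p = 0.652). The second, 208711_s_at, read 3342, 2588 and 2587 in TIG1A cells and 4377, 3912 and 4025 in TIG1B cells, against 2723, 4100 and 5224 in control cells. Here control replicate 1 lay among the TIG1A arrays, and the log2 fold changes were -0.46 ± 0.24 in TIG1A cells and 0.08 ± 0.24 in TIG1B cells (limma, adjusted p = 0.282 and 0.889). Without control replicate 1 they were -0.72 in TIG1A cells and, with the sign turned, -0.17 in TIG1B cells (limma, adjusted p = 0.0573 and 0.615), and CCND1 208712_at fell in TIG1A cells by 0.88 on the log2 scale (limma, adjusted p = 0.0404).

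CCND3, on chromosome 6, is the D-type cyclin best known from lymphoid cells. Its probe set 201700_at read 1379, 1321 and 1417 in TIG1A cells and 1339, 1619 and 1693 in TIG1B cells, against 1542, 2372 and 3279 in control cells. The control arrays spread the most, and the lowest of them lay above every TIG1A array but not above every TIG1B array. The log2 fold changes were -0.74 ± 0.26 in TIG1A cells and -0.57 ± 0.26 in TIG1B cells, and neither passed (limma, adjusted p = 0.132 and 0.298). Without control replicate 1 they were -1.02 and -0.85, and the fall in TIG1A cells passed (limma, adjusted p = 0.025 in TIG1A cells and 0.0599 in TIG1B cells). The other probe set of CCND3, 1562028_at, stayed at 7.7 to 83.7 over all arrays and did not pass the filter.

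CCND2 was at the lower end of what the arrays measured. Its probe sets 200951_s_at, 200952_s_at and 200953_s_at lay below the array median on every array, between 2.4 and 55.1. Only 231259_s_at passed the filter, at 101.9, 43.1 and 69.1 in TIG1A cells and 65.6, 65.2 and 63.2 in TIG1B cells, against 83.5, 65.6 and 37.7 in control cells. The groups overlapped, and the log2 fold changes of 0.19 ± 0.37 in TIG1A cells and 0.13 ± 0.37 in TIG1B cells did not pass (limma, adjusted p = 0.788 and 0.882). They were 0.44 and 0.38 with control replicate 1 left out.

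**Figure D1:**
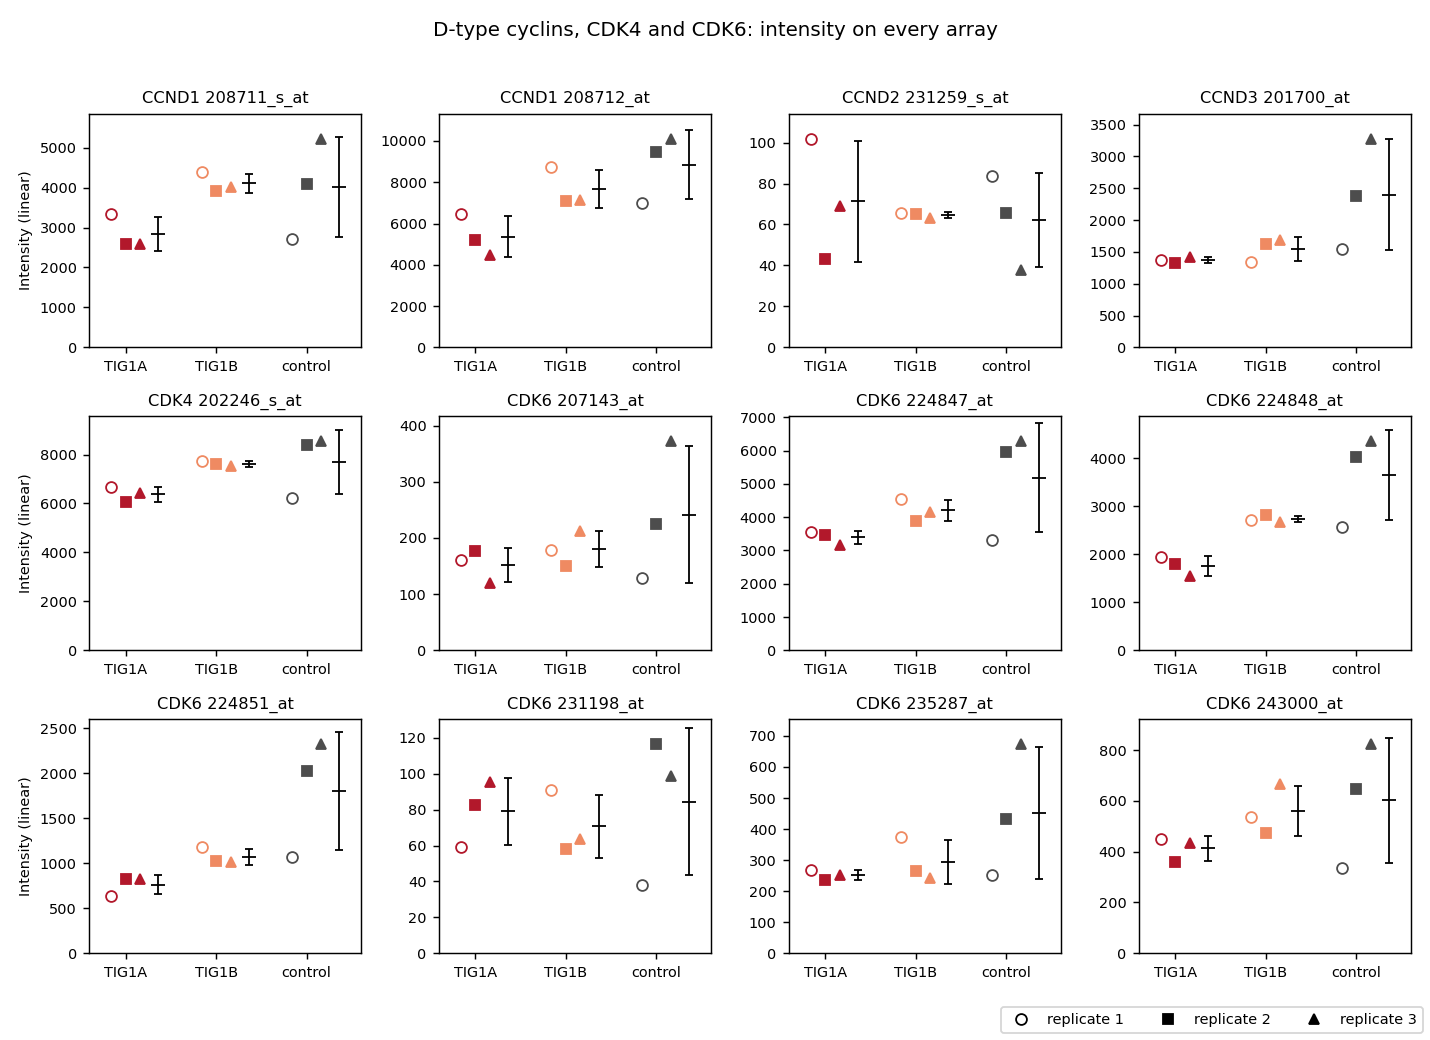
Intensity (linear scale, 1 panel per kept probe set of the D-type cyclins, CDK4 and CDK6) on each of the 3 TIG1A, 3 TIG1B and 3 control arrays, with the mean and SD at the right of each group. The open circle of control replicate 1 is the lowest control point in 11 of the 12 panels, and for CDK6 224848_at the TIG1A arrays (1545 to 1955) lie below all others.

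Of both kinases, CDK6 was the gene with a called probe set: 224848_at fell in TIG1A cells, to about 0.493 of the control level. CDK6 lies on the minus strand of chromosome 7 (GRCh38.p14, chr7:92604921-92836573) and has 2 upstream windows in the RefSeq table of GRCh38.p14 promoters. CDK4 lies on the minus strand of chromosome 12 and has 1. Their 250 bases before the annotated start are shown because CDK6 carries the called change and CDK4, the other kinase of the D-type cyclins, has no call. Capitals mark the GC box GGGCGG on either strand, and no match overlaps another. The windows are chr7:92836574-92836823 (the outer start of CDK6), chr7:92833960-92834209 (a start inside the annotated gene) and chr12:57752311-57752560 (CDK4).
CDK6 outer start: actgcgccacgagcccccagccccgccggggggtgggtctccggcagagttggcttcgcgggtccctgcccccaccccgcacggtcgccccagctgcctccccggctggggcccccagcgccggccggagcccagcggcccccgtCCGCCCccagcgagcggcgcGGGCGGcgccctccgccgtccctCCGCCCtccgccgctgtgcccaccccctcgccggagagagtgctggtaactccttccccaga
CDK6 inner start: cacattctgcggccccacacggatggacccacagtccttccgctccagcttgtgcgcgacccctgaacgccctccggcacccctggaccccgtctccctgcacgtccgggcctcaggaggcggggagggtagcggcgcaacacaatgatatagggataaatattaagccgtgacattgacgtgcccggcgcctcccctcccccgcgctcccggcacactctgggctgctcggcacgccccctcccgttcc
CDK4: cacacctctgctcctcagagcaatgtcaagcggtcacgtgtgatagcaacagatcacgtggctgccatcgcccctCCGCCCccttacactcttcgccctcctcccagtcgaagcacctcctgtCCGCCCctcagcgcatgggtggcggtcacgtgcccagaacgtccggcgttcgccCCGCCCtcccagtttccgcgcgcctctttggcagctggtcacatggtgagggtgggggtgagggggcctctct
GC boxes were found 3 times before the outer start of CDK6, not before the inner start, and 3 times before the start of CDK4. Of all 35116 windows of this length, 42.6% hold one. The E2F spellings TTTCCCGC, TTTCGCGC, TTTGCCGC and TTTGGCGC, searched on both strands, occur in 2.79% of all windows and in 0 of the 13 windows that the table holds for 8 of the 10 genes (all except CCND1 and CCND2). These matches describe letters and were not tested for binding. The only window of RB1 (chr13:48476200-48476449) lies inside the annotated gene (chr13:48303751-48481890), so the bases before its outer start were not searched.

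CDK6 224848_at read 1955, 1798 and 1545 in TIG1A cells and 2713, 2814 and 2683 in TIG1B cells, against 2578, 4037 and 4352 in control cells. The TIG1A arrays lay below every array of the other groups, and the TIG1B arrays lay above control replicate 1 and below the other control arrays. The mean intensity was 1766 ± 207 in TIG1A cells, 2737 ± 69 in TIG1B cells and 3656 ± 947 in control cells (SD, n = 3 each). The log2 fold change was -1.02 ± 0.21 in TIG1A cells (95% interval -1.51 to -0.53, limma, adjusted p = 0.0363) and -0.38 ± 0.21 in TIG1B cells (limma, adjusted p = 0.384). With that control array left out, the value in TIG1A cells was -1.25 (limma, adjusted p = 0.0104). The call was lost when any other single array was left out, with values of -1.25 to -0.88 over all 9 omissions and adjusted p-values up to 0.114. It was also lost, among other settings, when the arrays were centred on their medians and when no filter was applied.

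The other bright probe sets of CDK6 read lower in TIG1A cells as well, without passing the test. Probe set 224851_at read 635, 823 and 828 in TIG1A cells and 1176, 1025 and 1014 in TIG1B cells, against 1069, 2028 and 2319 in control cells. Its log2 fold changes were -1.18 ± 0.29 in TIG1A cells, just outside the threshold (limma, adjusted p = 0.0543), and -0.68 ± 0.29 in TIG1B cells (limma, unadjusted p = 0.0465, adjusted p = 0.261). When the array was left out, this probe set fell in both lines, by 1.52 in TIG1A cells and by 1.02 in TIG1B cells on the log2 scale (limma, adjusted p = 0.0104 and 0.0402). Probe set 224847_at read 3558, 3462 and 3172 in TIG1A cells and 4540, 3895 and 4169 in TIG1B cells, against 3310, 5968 and 6272 in control cells. Control replicate 1 lay among the TIG1A arrays, and the log2 fold changes were -0.56 ± 0.24 in TIG1A cells and -0.25 ± 0.24 in TIG1B cells (limma, adjusted p = 0.207 and 0.626). With that array left out they were -0.85 and -0.55 (limma, adjusted p = 0.018 and 0.0763), the first of which passed.

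The 4 remaining probe sets of CDK6, 207143_at, 231198_at, 235287_at and 243000_at, were dimmer and overlapped between TIG1A and control arrays. Their log2 fold changes ranged from -0.74 (235287_at) to 0.03 (231198_at) in TIG1A cells and from -0.54 (235287_at) to -0.02 (243000_at) in TIG1B cells, with SEs of 0.32 to 0.43. The sign of 231198_at turned with an offset of 50 before the logarithm in TIG1A cells, and the signs of 231198_at and 243000_at turned in TIG1B cells after quantile normalisation and after median centring. Over all 7 probe sets of CDK6, 6 were below 0 in TIG1A cells (median -0.56) and 7 in TIG1B cells (median -0.31), where 53.3% and 52.8% of all kept probe sets were below 0. Which transcripts each probe set reads was not analysed here.

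CDK4, the other kinase of the D-type cyclins, showed no called difference in either line. Probe set 202246_s_at read 6668, 6058 and 6412 in TIG1A cells and 7730, 7600 and 7519 in TIG1B cells, against 6204, 8394 and 8531 in control cells. Control replicate 1 lay among the TIG1A arrays, and the other control arrays lay above every array of both lines. The log2 fold change was -0.26 ± 0.15 in TIG1A cells (95% interval -0.62 to 0.10, limma, adjusted p = 0.338). It was close to 0 in TIG1B cells (95% interval -0.36 to 0.36, limma, adjusted p = 0.994), with a positive value of 0.14 after median centring. Leaving out control replicate 1 gave -0.41 in TIG1A cells and -0.15 in TIG1B cells, and neither passed (limma, adjusted p = 0.0756 and 0.488).

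**Figure D2:**
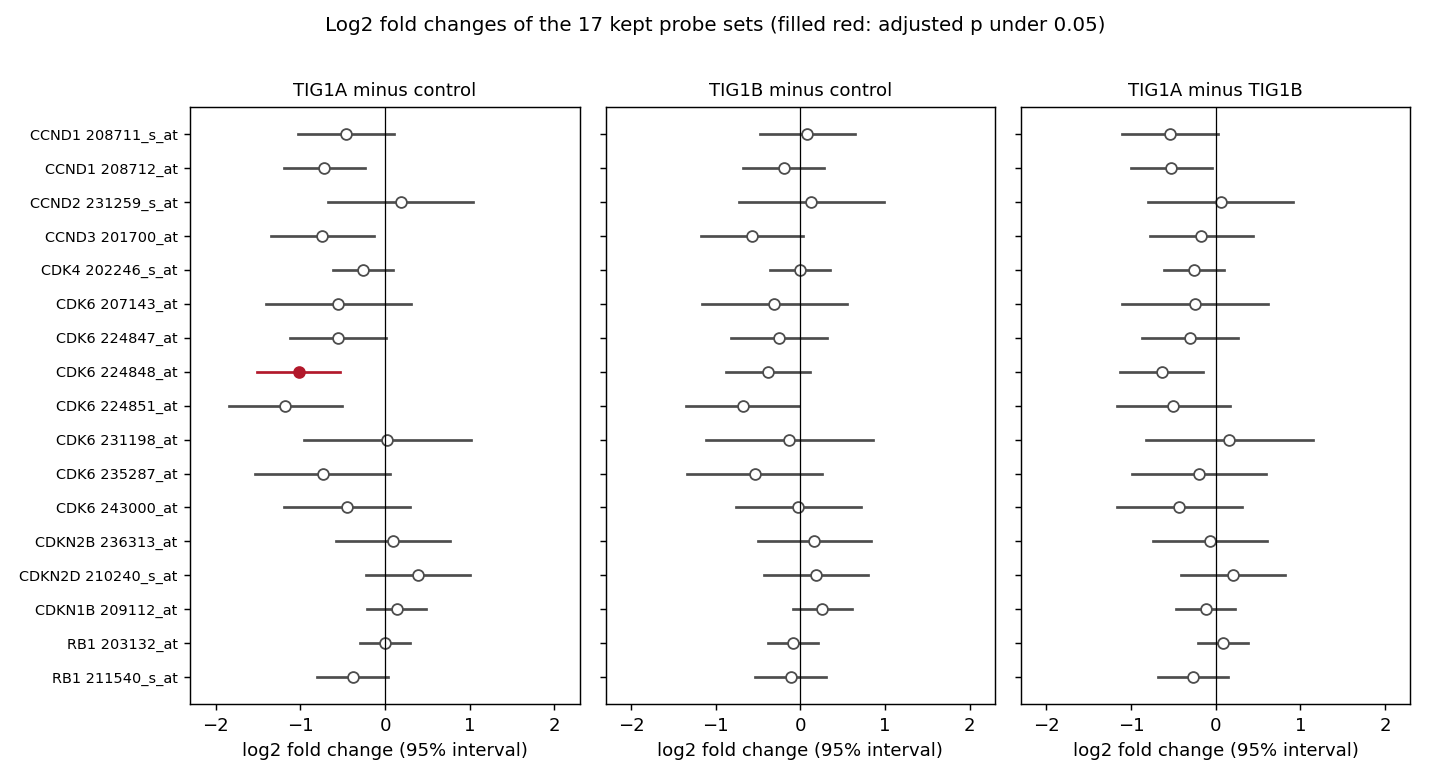
Log2 fold changes (x axis) with 95% intervals for the 17 kept probe sets (rows), in TIG1A minus control, TIG1B minus control and TIG1A minus TIG1B. CDK6 224848_at, at -1.02 in TIG1A minus control, is the filled red point and the only one past an adjusted p of 0.05.

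The inhibitors showed no called difference in either line. CDKN1B (p27) binds and restrains cyclin-kinase complexes. Its probe set 209112_at read 3469, 3844 and 3774 in TIG1A cells and 3551, 4181 and 4332 in TIG1B cells, against 3880, 3078 and 3155 in control cells. Control replicate 1 was the highest control here and lay above all TIG1A arrays and among the TIG1B arrays. The log2 fold changes were 0.14 ± 0.15 in TIG1A cells (95% interval -0.21 to 0.49) and 0.26 ± 0.15 in TIG1B cells (95% interval -0.09 to 0.60), with adjusted p-values of 0.599 and 0.404 in limma. They were 0.24 and 0.36 without control replicate 1 (limma, adjusted p = 0.308 and 0.193).

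CDKN2D, an INK4 inhibitor of CDK4 and CDK6, was measured by 210240_s_at at 614, 606 and 702 in TIG1A cells and 548, 649 and 480 in TIG1B cells, against 638, 319 and 572 in control cells. The groups overlapped, with control replicate 2 the lowest array of all. The log2 fold changes of 0.39 ± 0.27 in TIG1A cells and 0.18 ± 0.27 in TIG1B cells did not pass (limma, adjusted p = 0.404 and 0.751). CDKN2B, the INK4 inhibitor known to respond to TGF-beta, was read by 236313_at at 163, 114 and 156 in TIG1A cells and 114, 203 and 144 in TIG1B cells, against 186, 116 and 110 in control cells. These groups also overlapped, with log2 fold changes of 0.10 ± 0.29 in TIG1A cells and 0.16 ± 0.29 in TIG1B cells (limma, adjusted p = 0.865 and 0.799). Leaving out control replicate 1 gave 0.58 and 0.38 for CDKN2D and 0.34 and 0.40 for CDKN2B in TIG1A and TIG1B cells, and none passed. The second probe sets of CDKN2D (213586_at, 4.1 to 25.9) and CDKN2B (207530_s_at, 3.0 to 54.0) lay below the array median on every array.

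RB1, the substrate of the D-type cyclin kinases, lies on chromosome 13 and was nearly level across the 3 groups on its brighter probe set. Probe set 203132_at read 1425, 1609 and 1635 in TIG1A cells and 1547, 1480 and 1372 in TIG1B cells, against 1494, 1525 and 1646 in control cells. All groups overlapped, and the 95% intervals of the log2 fold change were -0.29 to 0.29 in TIG1A cells and -0.38 to 0.21 in TIG1B cells (limma, adjusted p = 0.999 and 0.758). The second probe set, 211540_s_at, read 339, 365 and 333 in TIG1A cells and 506, 393 and 361 in TIG1B cells, against 511, 376 and 476 in control cells. Here the TIG1A arrays lay below all control arrays, with a log2 fold change of -0.38 ± 0.18 that did not pass (limma, adjusted p = 0.234), and the value in TIG1B cells was -0.12 ± 0.18 (limma, adjusted p = 0.77). The TIG1B values of both probe sets and the TIG1A value of 203132_at turned sign after median centring. The arrays measure RNA and not the phosphorylation of the protein.

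**Figure D3:**
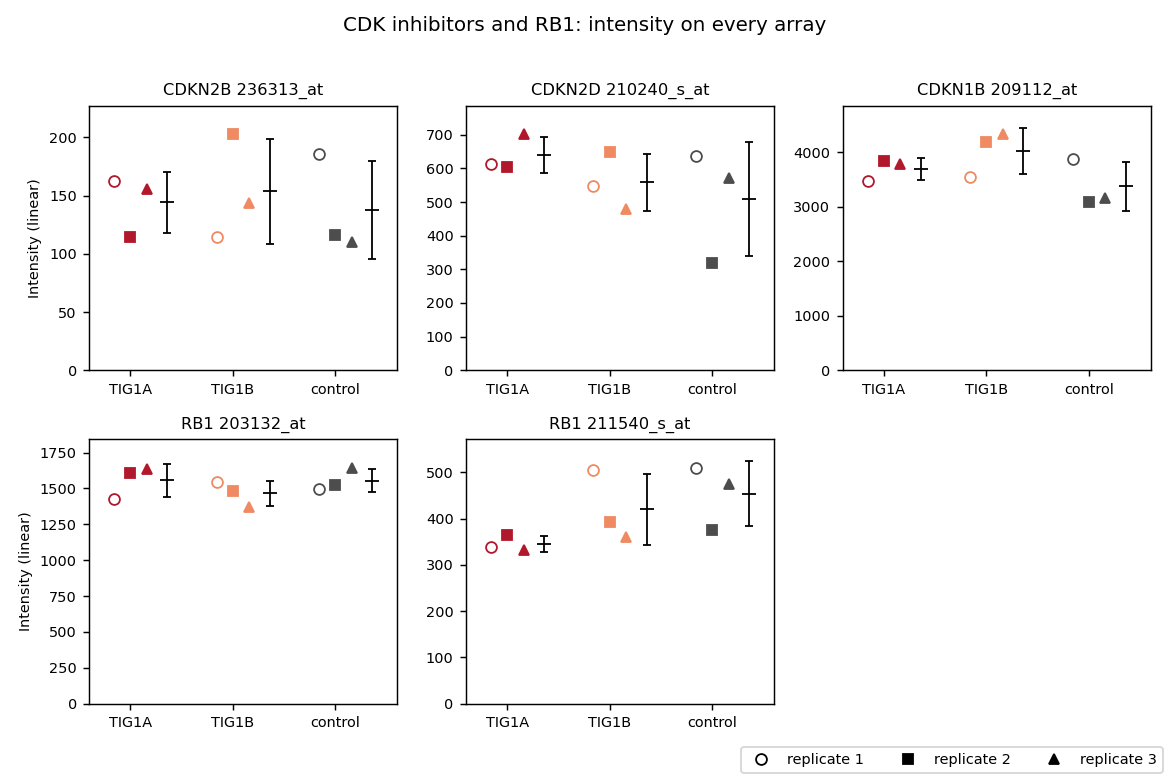
Intensity (linear scale, 1 panel per kept probe set of CDKN2B, CDKN2D, CDKN1B and RB1) on each of the 3 TIG1A, 3 TIG1B and 3 control arrays, with the mean and SD at the right of each group. Groups overlap in every panel except TIG1A against control for RB1 211540_s_at (333 to 365 against 376 to 511).

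Counted together, 1 of the 17 kept probe sets was called in TIG1A against control cells, or 5.88%, close to the 6.06% of all kept probe sets. At an unadjusted p under 0.05 there were 4, all lower (23.5%, against 25% of all in either direction and 13.6% of all in the lower direction). The groups did not overlap for 5, all lower in TIG1A cells (29.4%, against 30.7% of all in either direction and 16.9% in the lower direction). Counted in either direction, these shares were near the background. In the lower direction alone they were above it at an unadjusted p and without overlap, an excess that was not tested. The median log2 fold change of the 17 was -0.45 in TIG1A cells, against -0.04 for all kept probe sets, and 12 were below 0 (against 53.3% of all). Of the 17, 7 are probe sets of CDK6, 6 of them below 0. Probe sets of a gene read the same samples and are not independent, so CDK6 weighs heavily in all counts of the 17.

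In TIG1B against control cells, 0 of 17 were called by limma (background 1.78%), 1 reached an unadjusted p under 0.05 (5.88%, against 18.5% of all), and none had groups that did not overlap (background 24.9%). The median log2 fold change was -0.12, against -0.03 for all, and 12 of 17 were below 0 (against 52.8% of all), 7 of them probe sets of CDK6. Both comparisons share the control arrays and are not independent of each other.

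Without control replicate 1, limma called 6 of the 17 in TIG1A cells, all lower (background 9.34% in either direction, with 1312 of 29977 lower). They were CCND1 208712_at, CCND3 201700_at and CDK6 224847_at, 224848_at, 224851_at and 235287_at. In TIG1B cells 1 of 17 was called, CDK6 224851_at (background 3.47%). The groups then did not overlap for 12 probe sets in the lower and 2 in the higher direction in TIG1A cells (82.4%, against 47.3% of all), and for 9 lower and 1 higher in TIG1B cells (58.8%, against 42.4% of all). The median log2 fold changes of the 17 were -0.72 in TIG1A cells and -0.36 in TIG1B cells. This array was the lowest control for most probe sets of the cyclins and kinases and the highest for the inhibitors. Leaving it out thus moves the former down and the latter up, so these counts are not separate evidence of a change. What set this control array apart was not tested.

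**Figure D4:**
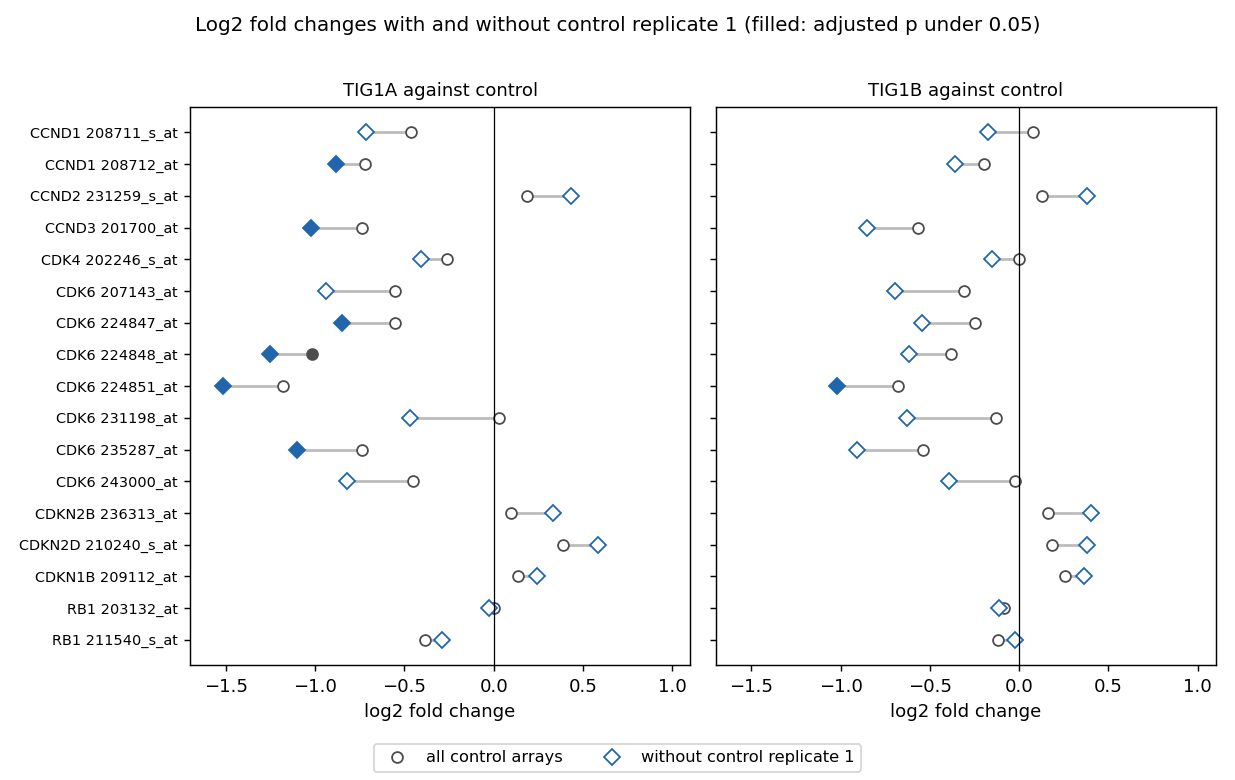
Log2 fold changes (x axis) of the 17 kept probe sets (rows) in TIG1A and TIG1B cells against control, with all control arrays (circles) and without control replicate 1 (diamonds). Filled symbols passed an adjusted p of 0.05, which were 1 and 6 in TIG1A cells and 0 and 1 in TIG1B cells.

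TIG1A against TIG1B cells does not use the level of the control arrays and sets the isoforms side by side. In limma 0 of the 17 probe sets were called (background 0.417%), and 2 reached an unadjusted p under 0.05, both lower (11.8%, against 13.3% of all in either direction). The arrays of TIG1A and TIG1B cells did not overlap for 7, all lower in TIG1A cells (41.2%, against 24.1% of all in either direction and 12.1% in the lower direction). They were both probe sets of CCND1, CDK4, and 4 of CDK6 (224847_at, 224848_at, 224851_at and 243000_at). The log2 differences of these 7 ranged from -0.64 ± 0.21 for CDK6 224848_at (limma, adjusted p = 0.269) to -0.26 ± 0.15 for CDK4 (limma, adjusted p = 0.538). CCND1 gave -0.54 ± 0.24 and -0.52 ± 0.21 (limma, adjusted p = 0.396 and 0.336). For CDK6 224848_at, called in TIG1A and not in TIG1B cells against control, a difference between the isoforms was thus not shown, with a 95% interval of -1.13 to -0.15 before adjustment. CDKN1B (-0.12 ± 0.15), CDKN2B (-0.07 ± 0.29), CDKN2D (0.20 ± 0.27) and RB1 203132_at (0.08 ± 0.13) overlapped between the lines.

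The rest of the G1/S pathway was described from a list of 52 genes, of which 51 have a probe set in the annotation, with 102 of 114 probe sets kept. In TIG1A against control cells 1 rose and 10 fell (10.8%, background 6.06%), in TIG1B against control cells 1 fell (0.98%, background 1.78%), and in TIG1A against TIG1B cells 1 fell (0.98%, background 0.417%). The median log2 fold changes were -0.23, -0.03 and -0.13 in that order of comparisons. When control replicate 1 was left out, 2 rose and 22 fell in TIG1A cells (background 9.34%), and 5 of 102 fell in TIG1B cells (background 3.47%). The backgrounds given for this list count calls in either direction.

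Downstream of the kinases, the list holds 16 measured E2F target genes of S phase with 26 kept probe sets. In TIG1A cells 4 of the 26 fell (15.4%, background 6.06% in either direction, with 960 of 29977 lower). Below 0 were 25 (against 53.3% of all). For 18, TIG1A and control cells did not overlap, all lower (69.2%, against 16.9% of all kept probe sets in the lower direction). The median was -0.62. In TIG1B cells 0 of the 26 were called by limma (background 1.78%), 4 reached an unadjusted p under 0.05 (15.4%, against 18.5% of all), and the median was -0.17. Between the isoforms all 26 were lower in TIG1A than in TIG1B cells, where the median log2 difference of all kept probe sets was 0.0005. Of the 26, 19 were without overlap (73.1%, against 12.1% of all in the lower direction). Yet 0 passed limma's adjusted threshold (background 0.417%), in a fit whose spread includes that of the control arrays. An unadjusted p under 0.05 was reached by 10 (38.5%, against 13.3% of all). Control replicate 1 was the lowest control for 24 of these 26 probe sets as well, so leaving it out lowers those fold changes too. Without it 14 of the 26 fell in TIG1A cells (53.8%, background 9.34% in either direction, with 1312 of 29977 lower, median -0.76). In TIG1B cells 3 fell (11.5%, background 3.47% in either direction, with 509 of 29977 lower, median -0.33). The 4 that fell in TIG1A cells were CDT1 209832_s_at, which licenses replication origins (-1.19 ± 0.19, limma, adjusted p = 0.0191), MCM7 210983_s_at and MCM3 201555_at, subunits of the replicative helicase (-0.90 ± 0.18 and -0.72 ± 0.16), and RRM2 209773_s_at, a subunit of ribonucleotide reductase (-0.74 ± 0.16). Without control replicate 1 these were -1.37, -1.07, -0.86 and -0.86 in the same order, and all passed. That omission is 1 of 18 alternative settings, which are described further on. Over the 18, CDT1 209832_s_at passed in 12, MCM7 210983_s_at in 6, MCM3 201555_at in 5 and RRM2 209773_s_at in 6.

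CCNA2, the cyclin of S phase and G2, fell in TIG1A cells on both of its probe sets. Probe set 203418_at read 2749, 2817 and 2360 in TIG1A cells and 4373, 3968 and 3498 in TIG1B cells, against 5767, 6428 and 5935 in control cells. The 3 groups did not overlap, and control replicate 1 was the lowest control by a small margin. The log2 fold change was -1.20 ± 0.14 in TIG1A cells (limma, adjusted p = 0.00992) and -0.62 ± 0.14 in TIG1B cells, which did not pass (limma, adjusted p = 0.0799). The second probe set, 213226_at, fell by 0.73 in TIG1A cells on the log2 scale (limma, adjusted p = 0.0438), a call that was lost without control replicate 1 (limma, adjusted p = 0.0604).

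Among the E2F factors, E2F4, which mostly represses with RB relatives, fell on 202248_at in both lines. It read 299, 259 and 191 in TIG1A cells and 269, 241 and 286 in TIG1B cells, against 474, 800.5 and 708 in control cells. The log2 fold changes were -1.39 ± 0.24 in TIG1A cells and -1.28 ± 0.24 in TIG1B cells (limma, adjusted p = 0.023 and 0.0471). Its other probe set, 38707_r_at, gave -0.74 and -0.73, which did not pass (limma, adjusted p = 0.0594 and 0.098). E2F3, an activating E2F, fell on 203692_s_at in TIG1A cells (-0.92 ± 0.21, limma, adjusted p = 0.044), whereas its other probe set 203693_s_at gave -0.16 ± 0.20. E2F7, an atypical E2F that represses, fell on 228033_at in TIG1A cells against control cells (-0.91 ± 0.15, limma, adjusted p = 0.0212), whereas 241725_at was not called. Of the ubiquitin genes that turn over cell cycle proteins, SKP2, whose complex marks CDKN1B for degradation, fell on 210567_s_at in TIG1A cells (-1.24 ± 0.16, limma, adjusted p = 0.0113). Its other probe sets, 203625_x_at and 203626_s_at, were not called. CUL1, the scaffold of the same ligase, rose on 207614_s_at (0.66 ± 0.14, limma, adjusted p = 0.0355), but its other probe set 238509_at gave -0.08 ± 0.25. With control replicate 1 left out, the calls of E2F3 (-1.01), E2F7 (-0.97), SKP2 (-1.21) and CUL1 (0.59) in TIG1A cells and of E2F4 202248_at (-1.62 in TIG1A cells, -1.51 in TIG1B cells) all held, with adjusted p-values of 0.0132 to 0.0466 in limma. Probe set 203418_at of CCNA2 held as well (-1.23, limma, adjusted p = 0.0124). Other settings kept these calls less often. Over the 18 alternatives in TIG1A cells, CCNA2 203418_at passed in 16, SKP2 in 15 and E2F4 202248_at in 10. E2F7 passed in 9, CUL1 in 7, and E2F3 and CCNA2 213226_at in 5 each. In TIG1B cells E2F4 202248_at passed in 4 of 18.

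**Figure D5:**
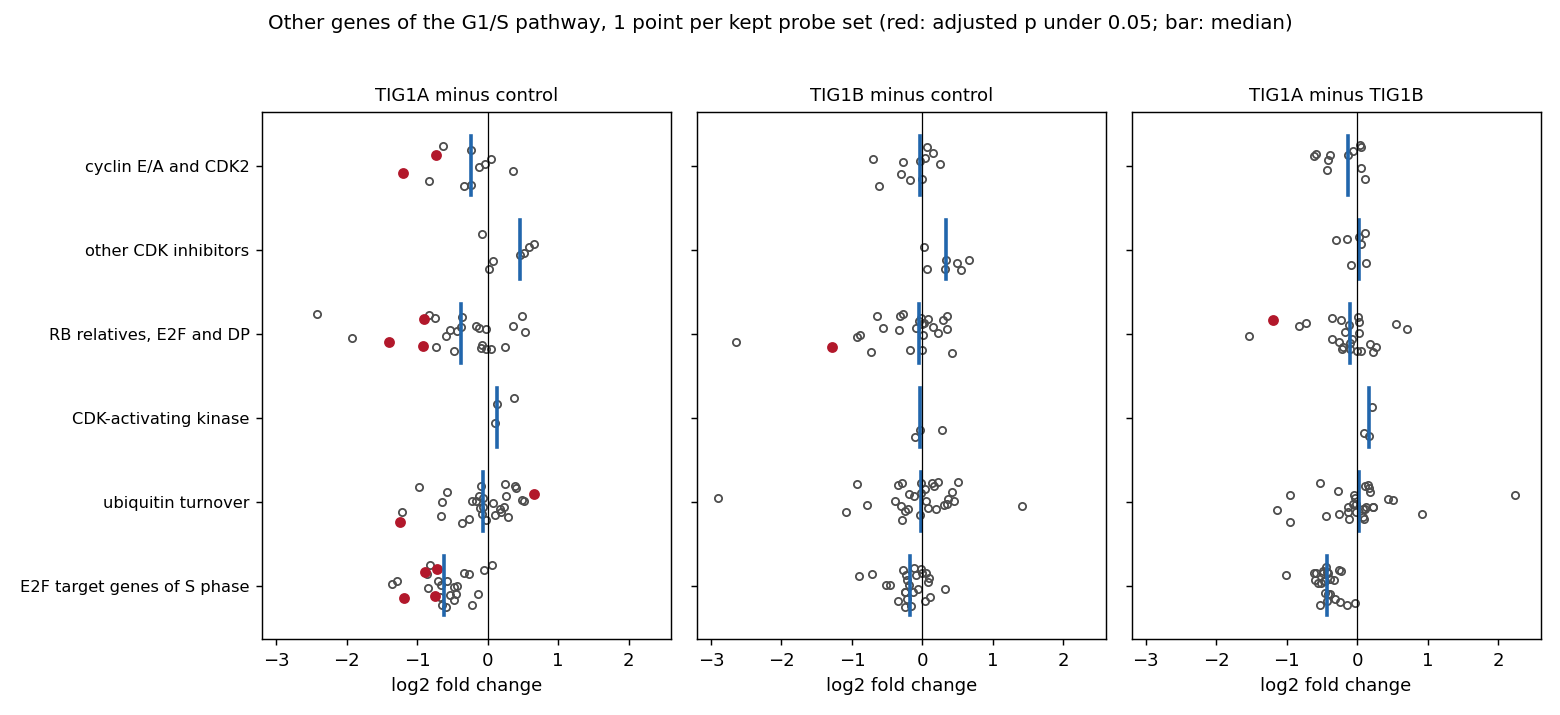
Log2 fold changes (x axis, 1 point per kept probe set) of the G1/S pathway list by class (rows) in TIG1A minus control, TIG1B minus control and TIG1A minus TIG1B, with red points past an adjusted p of 0.05 and bars at the class medians. The medians of the S phase E2F targets are -0.62 in TIG1A and -0.17 in TIG1B against control.

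The genes were also set beside their neighbours on the chromosome, the 12 measured genes on either side, each by its brightest kept probe set. This is a description with no test. For CDK6 (224847_at) the 24 neighbours had a median log2 fold change of 0.14 in TIG1A cells against control, where CDK6 gave -0.56 and 3 neighbours were as low or lower. For CCND1 (208712_at) the neighbours had a median of -0.11 in TIG1A cells and 0.33 in TIG1B cells against control, where CCND1 gave -0.72 and -0.20. Between the isoforms, the neighbours of CCND1 were themselves lower in TIG1A than in TIG1B cells, with a median of -0.45 and 21 of 24 below 0, and CCND1 at -0.52 lay among them. CDKN2D ran the other way, at 0.39 in TIG1A cells where its neighbours had a median of -0.30. For CCND3 (201700_at) the neighbours had medians of -0.12 in TIG1A and -0.24 in TIG1B cells against control, where CCND3 gave -0.74 and -0.57. As low or lower were 4 and 7 neighbours. The measured genes directly beside CCND3, BYSL and TAF8, gave -0.69 and -0.66 in TIG1A cells and -0.44 and -0.59 in TIG1B cells. Neighbours of the remaining genes are not described here.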

How the data were processed

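RNA of the 3 lines was hybridised to Affymetrix HG-U133 Plus 2.0 arrays (9 in all, 3 per group). The authors deposited linear intensities, with 1 value for each probe set, computed in the GeneChip Operating System by global scaling to 500. Detection calls were not used here. The series description gives micromolar MFP where labels and paper give 5 nM, which was taken.

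Array control probe sets (62) were set aside. Probe sets at or above the 50th percentile of their array on at least 2 of 3 arrays of a group were kept (29977 of 54675). The annotation gives 1 gene symbol for 41097 probe sets, several for 1801 and none for 11777, and only the first were named. Intensities under 1 were set to 1 before log2. A model with 1 mean per group was fitted to all 9 arrays with limma 3.58.1 in R 4.3.3, and p-values were adjusted by Benjamini-Hochberg over all kept probe sets, at 0.05. Probe sets of a gene were kept separate. The number of arrays limits the precision. The methods name 3 independent samples per line, so p-values measure the spread between samples of 1 clone each.

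Genes named were all members, and per class of the pathway list up to 4 with the smallest adjusted p past the threshold. Members, lists and tests were chosen with earlier results of these data known. Alternatives were quantile normalisation, median centring, an offset of 50 before log2, no filter, a 75th percentile filter, the 6 arrays of a comparison alone, a replicate block, eBayes with trend and robust options, the methods' t-test, and each array left out. Counts of non-overlapping groups and of S phase targets without control replicate 1 were added after seeing the data.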

Additional observations from a re-analysis of the deposited data

Results flagged for a closer look

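E2F7, an atypical E2F factor that represses, differed between the isoforms by a direct test. Its probe set 228033_at read 618, 769 and 802 in TIG1A cells and 1534, 1813 and 1641 in TIG1B cells, with 1246, 1371 and 1472 in control cells. The log2 difference of TIG1A against TIG1B cells was -1.19 ± 0.15 (limma, adjusted p = 0.0302). All TIG1A arrays lay below and all TIG1B arrays above the control arrays, although the value in TIG1B against control cells, 0.29 ± 0.15, did not pass (limma, adjusted p = 0.365). Over the alternatives the adjusted p of the difference ranged from 0.00148 to 0.169, and it passed in 6 of 18. The second probe set, 241725_at, gave -0.82 ± 0.29 between the isoforms and did not pass (limma, adjusted p = 0.293).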

How the results depend on the processing

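Under the alternatives, 920 of 957 values of the 51 member log2 fold changes kept their sign, and none of the 37 others passed the threshold. Many of the 920 could not turn. The filters, the 6 arrays alone, the replicate block, the eBayes options and the t-tests leave the fold change as it was. So does leaving out an array of the group outside the comparison. The count of members called in TIG1A against control cells, 1 in the report, was 1 after quantile normalisation and 0 after median centring, without a filter, with the 6 arrays of the comparison alone, with a replicate block and with the methods' t-test after Benjamini-Hochberg. It was 2 with an offset of 50 (background over all probe sets tested 9.16%), 3 with the unadjusted t-test (20.5%), and 4 with the 75th percentile filter (24.3%) and with eBayes using trend and robust options (11.9%). Leaving out 1 array gave 0 to 6, the 6 without control replicate 1 (9.34%), where the share of all ran from 0.851% to 9.34% over the omissions. In TIG1B against control cells the count was 0 except without control replicate 1, where it was 1 (background 3.47%, 0 to 1 over the omissions). In TIG1A against TIG1B cells it was 0 except for 6 with the unadjusted t-test (15.9%). Without control replicate 1, groups without overlap numbered 14 in TIG1A cells (82.4%, against 47.3% of all) and 10 in TIG1B cells (58.8%, against 42.4%). With it they numbered 5 (29.4%, against 30.7%) and 0 (against 24.9%). S phase E2F targets called numbered 14 (53.8%, background 9.34%) and 3 (11.5%, background 3.47%) without it. With it they numbered 4 (15.4%, background 6.06%) and 0 (background 1.78%).

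For the pathway list, called 11 times for TIG1A over control, 1 time for TIG1B over control and 1 time between the isoforms, the counts in that order were 11, 0 and 1 after quantile normalisation, 5, 0 and 0 after median centring, 17, 1 and 2 with the offset, 0, 0 and 0 without a filter, 32, 5 and 4 with the 75th percentile filter, 1, 0 and 0 with 6 arrays, 3, 0 and 0 with the replicate block, 30, 6 and 5 with eBayes using trend and robust options, and 0, 0 and 2 (adjusted) or 35, 17 and 29 (unadjusted) with the t-test. Leaving out 1 array gave 2 to 24, 0 to 5 and 0 to 1. Over these omissions the share of all probe sets called also varied, from 0.851% to 9.34%, 0.197% to 3.47% and 0% to 0.51%. The share of all probe sets called was, in the same order, 24.3%, 12.1% and 4.56% with the 75th percentile filter, 11.9%, 5.21% and 1.99% with eBayes, 9.16%, 3.13% and 0.734% with the offset, 20.5%, 15.3% and 15.9% with the unadjusted t-test, and at most 6.28%, 1.79% and 0.41% with the other alternatives that leave out no replicate. The cause of these shifts was not tested.

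Signs turned only for values that were not called. After median centring, log2 fold changes were 0.16 (RB1 203132_at, TIG1A) and, in TIG1B cells, 0.14 (CDK4), 0.0606 (RB1 203132_at), 0.0297 (RB1 211540_s_at), 0.014 (CDK6 231198_at) and 0.12 (CDK6 243000_at). After quantile normalisation they were 0.011 (RB1 203132_at, TIG1A) and, in TIG1B cells, 0.026 (CDK6 231198_at) and 0.041 (CDK6 243000_at). With the offset, CDK6 231198_at gave -0.018 in TIG1A cells. With 1 array left out, values that turned on some omission ranged, in TIG1A against control cells, from -0.0373 to 0.0618 for RB1 203132_at, -0.469 to 0.334 for CDK6 231198_at, -0.139 to 0.507 for CCND2 231259_s_at and -0.0411 to 0.335 for CDKN2B 236313_at. In TIG1B against control cells they ranged from -0.152 to 0.0777 for CDK4, -0.695 to 0.0691 for CDK6 207143_at, -0.175 to 0.295 for CCND1 208711_s_at, -0.123 to 0.378 for CDKN2D 210240_s_at, -0.628 to 0.176 for CDK6 231198_at, -0.195 to 0.379 for CCND2 231259_s_at, -0.0568 to 0.403 for CDKN2B 236313_at and -0.394 to 0.250 for CDK6 243000_at. In TIG1A against TIG1B cells they ranged from -0.244 to 0.377 for CCND2 231259_s_at and -0.260 to 0.153 for CDKN2B 236313_at.

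Samples of the same replicate number were not paired. Their deviations correlated at -0.04 to 0.19 over 9 pairs, 1 of them over 0.1, and with the replicate block CDK6 224848_at in TIG1A cells had an adjusted p of 0.0761 (limma). Not every array correlated best with its own number. With 3 arrays a group and 1 clone each, moderate changes can be missed, and dim probe sets near the array median (CCND2, CDK6 231198_at, CDKN2B) set only wide limits.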

Other observations

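CDKN1C, a CIP/KIP inhibitor of cyclin-kinase complexes, was picked out after its values were seen. Its probe set 213348_at read 2417, 2999 and 3531 in TIG1A cells and 2341, 3762 and 3463 in TIG1B cells, against 2271, 1753 and 1922 in control cells. All arrays of both lines lay above all control arrays. The log2 fold changes were 0.58 ± 0.23 in TIG1A cells and 0.67 ± 0.23 in TIG1B cells (limma, adjusted p = 0.169 and 0.184), and 0.68 and 0.77 without control replicate 1 (limma, adjusted p = 0.139 and 0.145). On 213182_x_at, 216894_x_at and 219534_x_at they were 0.66, 0.46 and 0.51 in TIG1A cells and 0.55, 0.34 and 0.48 in TIG1B cells, and none passed. The fifth probe set, 219533_at, lay at 2.2 to 9.2 and was not kept. The suffix x_at marks, in the design of the array, probes that can also bind other transcripts.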
